A study of Mus musculus with 12 samples.

Results

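The cytosolic ribosomal protein genes encode the proteins of the ribosome that translates nuclear mRNA. They were taken by name, as every gene of the deposited count table called Rpl or Rps plus a number, with an optional a, x or y, together with Rplp0, Rplp1, Rplp2 and Rpsa. This gave 76 genes of the 26742 in the table, 43 of the large subunit, 30 of the small subunit and 3 of the stalk, and all 76 passed the filter on low counts that kept 16627 genes. RNA was measured in male mouse embryonic stem (ES) cells of the B6J and 129 backgrounds, all grown in serum with the cytokine LIF. For 5 days the cells received daily either 1 µM of the MEK inhibitor PD 0325901 (iMEK) or its solvent, DMSO. The 4 groups were B6J with iMEK, B6J with DMSO, 129 with iMEK and 129 with DMSO, with 3 libraries each. The labels give 1 genotype per background and no clone, so background and cell line cannot be told apart. No label says whether the 3 libraries of a group are separate cultures or repeats of 1 culture, and p-values therefore cover spread that may be technical.

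A ribosome holds 1 copy of nearly every ribosomal protein, and these proteins are made in near-equal amounts and assembled on ribosomal RNA in the nucleolus. The stalk, built from the proteins of Rplp0, Rplp1 and Rplp2, rises from the large subunit and binds the translation factors. In mammals most of these mRNAs begin with a run of pyrimidines, the terminal oligopyrimidine or TOP sequence, through which growth signals act on their translation by way of mTOR and Larp1. MEK activates ERK, whose downstream kinases of the Rps6ka family phosphorylate the protein of Rps6, and growing stem cells spend much of their transcription and translation on these genes. RNA levels alone do not measure translation, which was not measured in these libraries.

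Libraries held 62634533 to 96341637 counts. In each group 1 library stood apart from the other pair, by a chi-square per degree of freedom of 43.6 to 180 against 7.04 to 27.1 within the pair. These were replicate 3 of B6J with iMEK and replicate 1 of the other 3 groups. Replicate 1 of 129 with DMSO also held 2893 CPM (counts divided by the TMM-scaled library size in units of 1e+06) summed over 8 primitive endoderm markers, against 80.3 to 238 CPM in the other libraries. The 20 fibroblast markers summed to 8815 to 14442 CPM in B6J with iMEK and 6096 to 7206 CPM in B6J with DMSO. They summed to 9431 to 15083 CPM in 129 with iMEK and 4303 to 9540 CPM in 129 with DMSO. The 9 ES cell markers were counted in every library and summed to 2915 to 5105 CPM. In bulk RNA, fewer cells of a type and less RNA per cell cannot be told apart.

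The 76 genes differed widely in level although their proteins are needed in near-equal numbers. Per kilobase of their principal transcript, levels averaged over the 12 libraries ran over 12.2 to 2420 CPM, with a median of 731 CPM per kilobase. The median was 626 CPM per kilobase for the large subunit genes and 928 for the small subunit genes. Rplp1, which encodes a stalk protein, was highest at 2420 CPM per kilobase, followed by the large subunit genes Rpl4 at 2307 and Rpl8 at 2032. At the low end stood Rpl24 at 12.2, Rps10 at 20.8 and Rpl13a at 78.3 CPM per kilobase. In GENCODE M21 these 3 share exon bases with another gene on the same strand, 71.5% of the exon bases for Rpl24, 53.6% for Rps10 and 59.3% for Rpl13a. The other gene is Gm28037 beside Rpl24, the readthrough gene RPS10-NUDT3 beside Rps10, and Gm45713 with Mir5121 beside Rpl13a. Of the other 73 genes, Rpl19 alone shares such bases, 10.7% of them. The part of these overlaps in the low levels was not tested. For Rps15a and Rps20 the annotated transcripts are long, 5130 and 3706 bases, so their levels per kilobase, 95.1 and 211 CPM, rest on that choice of transcript.

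**Figure D1:**
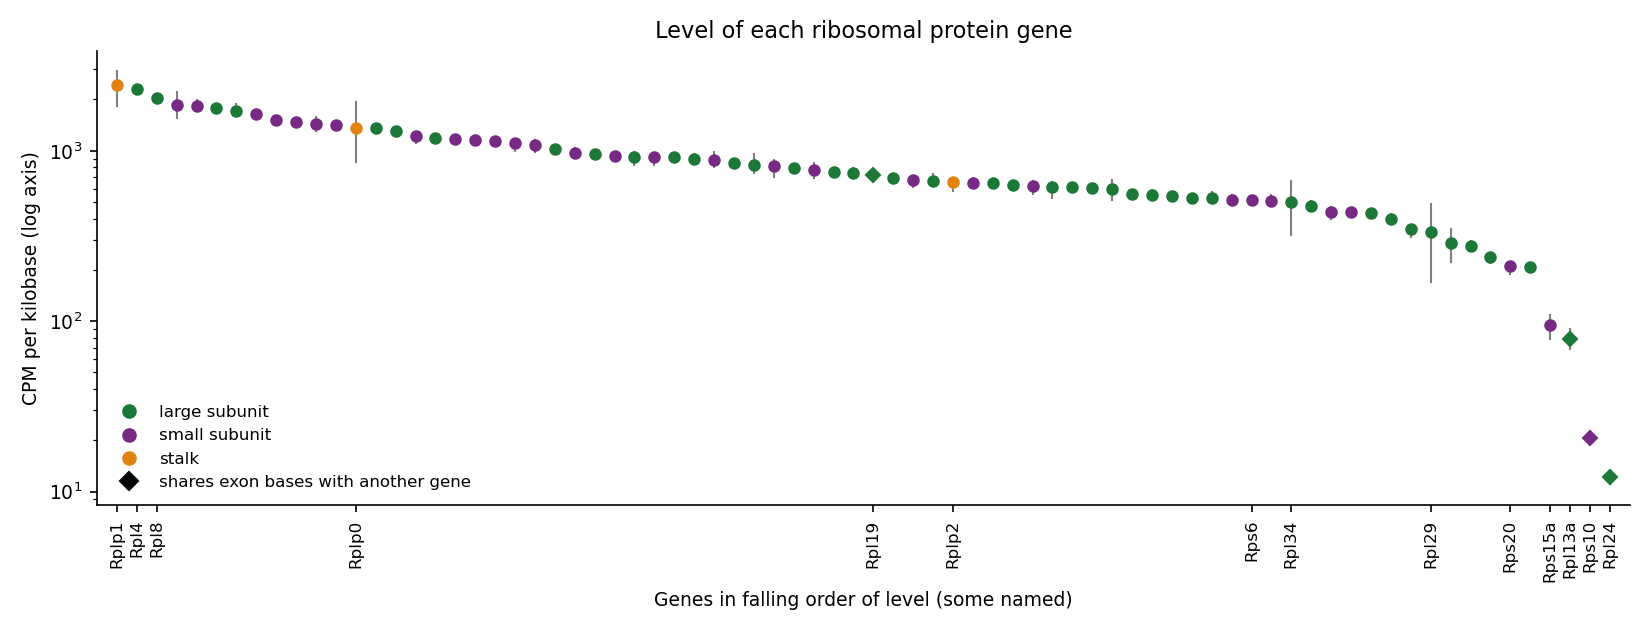
Level of each of the 76 genes in CPM per kilobase of transcript (log axis), in falling order with some genes named, as the mean over 12 libraries, with a grey line over the range of the 4 group means. Diamonds mark the 4 genes that share exon bases with another gene on the same strand, 3 of which are the lowest of all.

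Ribosomal protein genes took a similar share of every library, given here as a description. In B6J the members made up 5.17, 5.27 and 5.47% of the counts with iMEK, against 6.17, 5.44 and 5.27% with DMSO. In 129 they made up 5.74, 5.03 and 5.14% with iMEK, against 4.76, 5.13 and 5.29% with DMSO. The 4 groups overlapped, and the highest and the lowest of the 12 values, 6.17 and 4.76%, belonged to replicate 1 of B6J with DMSO and replicate 1 of 129 with DMSO, both among the libraries that stood apart. In B6J with DMSO all 76 genes had their highest CPM in replicate 1. In 129 with iMEK 73 of the 76 did so, again in replicate 1. In 129 with DMSO 54 of the 76 had their lowest CPM in replicate 1. The median coefficient of variation over the 3 libraries was 3.15% in B6J with iMEK, 10.3% in B6J with DMSO, 8.45% in 129 with iMEK and 4.26% in 129 with DMSO.

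**Figure D2:**
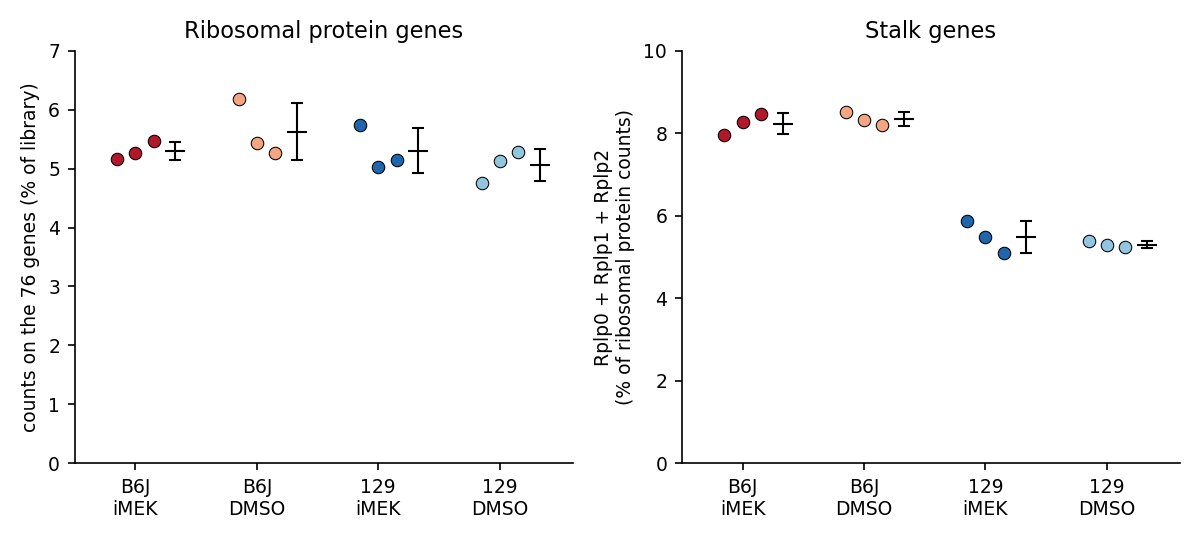
Share of each library's counts on the 76 ribosomal protein genes (left, in percent) and share of those counts on the 3 stalk genes (right, in percent). Each point is 1 library, and bars give the mean ± SD of 3. The groups overlap on the left, while on the right the 6 B6J libraries (7.95 to 8.52%) lie above the 6 of 129 (5.10 to 5.88%).

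In 129, differences of these RNAs between iMEK and DMSO were small. By edgeR's quasi-likelihood test, with Benjamini-Hochberg adjustment over all genes tested and a threshold of 0.05, 2 of the 76 were higher with iMEK than with DMSO and none was lower. Of all genes, 17.4% were higher and 18.2% lower, so that 2.63% of the members were called, beside 35.7% of all genes. The 2 were Rps29, a zinc-binding small subunit protein, and Rpl37a, a zinc-binding large subunit protein. At the unadjusted p threshold of 0.05, 12 members were higher and none was lower. DESeq2 called 8 higher, where it called 3395 of all 16627 genes higher. With 1 library left out the edgeR count ran over 0 to 10. It was 10 without replicate 2 of 129 with iMEK, where 2561 of all 16956 genes were higher. It was 7 without replicate 1 of B6J with DMSO, where 3066 of all 16884 genes were higher. The fitted log2 changes ran over -0.09 to 0.33, with 71 of the 76 above zero and a median of 0.11, beside a median of -0.01 over all genes.

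Rps29 stood at 390, 325 and 324 CPM in 129 with iMEK, against 283, 277 and 266 CPM with DMSO. Every iMEK library lay above every DMSO library, and replicate 1 was the highest of each group. The change was 1.26-fold (log2 0.33 ± 0.10 SE, adjusted p = 0.0263). Rpl37a stood at 396, 346 and 336 CPM with iMEK, against 306, 295 and 289 CPM with DMSO. The groups did not overlap here either, and the change was 1.21-fold (log2 0.28 ± 0.09 SE, adjusted p = 0.0309). Both calls were lost without replicate 1 of 129 with iMEK (adjusted p = 0.0803 and 0.0867) and without replicate 2 (0.0632 and 0.0815) or replicate 3 (0.0794 and 0.0884) of 129 with DMSO. With the fibroblast marker level as a covariate neither was called, at log2 0.12 for Rps29 and 0.09 for Rpl37a. Same-numbered iMEK and DMSO libraries of 129 correlated, though this does not show that they were paired. The fit of 129 alone with replicate number as a block is given too. It called 4 members higher, these 2 included, and none lower, where 3171 of all 15990 genes were higher and 3361 lower.

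Named members of other roles had small differences in 129. Rps6, the ribosomal target of the S6 kinases, had 492, 427 and 459 CPM with iMEK, against 409, 424 and 454 CPM with DMSO, and the groups overlapped (log2 0.10 ± 0.08 SE, adjusted p = 0.372). Rpl5 and Rpl11 encode the proteins that join the small ribosomal RNA of the large subunit in a particle that also binds Mdm2. Their log2 changes were 0.05 ± 0.09 and 0.12 ± 0.09 SE, neither of which passed the test (adjusted p = 0.644 and 0.308). The 4 X-linked genes, Rpl10, Rpl36a, Rpl39 and Rps4x, had log2 changes of 0.06, 0.10, 0.14 and 0.10, each with an SE of 0.07 to 0.11, none of which passed (adjusted p of 0.331 to 0.578). The 3 stalk genes had log2 changes of 0.07 (Rplp0), 0.19 (Rplp1) and 0.22 (Rplp2), which did not pass (adjusted p = 0.605, 0.225 and 0.128). Of the genes highest and lowest per kilobase, Rpl4, Rpl8, Rpl24 and Rps10 passed in none of the 5 comparisons, with a smallest adjusted p of 0.188 for Rpl24 in 129.

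In B6J no member was called with iMEK, higher or lower, by edgeR or by DESeq2, and none reached an unadjusted p of 0.05 in edgeR. Of all genes, 31.1% were called in B6J by edgeR, 14.6% higher and 16.5% lower. Log2 changes of the 76 genes ran over -0.17 to 0.07, with 13 above zero and a median of -0.06. Rps29 had 303, 314 and 362 CPM with iMEK, against 356, 313 and 283 CPM with DMSO, and Rpl37a had 340, 356 and 399 CPM with iMEK, against 387, 334 and 328 CPM with DMSO. Both genes overlapped between treatments in B6J. Rps6 had 446, 446 and 463 CPM with iMEK, against 527, 450 and 435 CPM with DMSO. The median standard error of a member's log2 change was 0.09, so a log2 change of 0.07 lay within 1 standard error. The lowest change lay farther out, at log2 -0.17 ± 0.08 SE for Rpl3, and did not pass edgeR's test (adjusted p = 0.146). Without replicate 1 of B6J with DMSO the members' median log2 change was 0.02, on the other side of zero.

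The response in B6J minus that in 129 was tested as an interaction. No member passed (1.48% of all genes did, 0.71% higher and 0.77% lower), DESeq2 called none, and 4 members reached an unadjusted p of 0.05, all on the lower side. All 76 differences were below zero, over -0.30 to -0.04, with a median of -0.17 beside 0.00 over all genes. With all 4 libraries that stood apart left out, the median was -0.02, with 27 of the 76 differences above zero, and the medians were 0.02 in 129 and -0.01 in B6J. That fit was chosen after seeing the data and kept the closer pair of libraries in each group. This choice narrows the estimated spread, so its adjusted p-values are likely too small. In that fit Rps28 alone of the members differed between the responses (log2 -0.23, adjusted p = 0.0400). It also called 4 members higher in 129 (Rpl37a, Rps29, Rps28 and Rpl29) and 1 lower (Rpl27, log2 -0.18, adjusted p = 0.0073). In B6J it called 2 lower, Rps20 among them (log2 -0.12, adjusted p = 0.0411). Calls were more frequent over the whole table too. Of all 16773 genes tested in that fit, 1023 were higher and 1036 lower for the difference of responses. In 129 4289 were higher and 4301 lower, and in B6J 3748 and 3835.

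**Figure D3:**
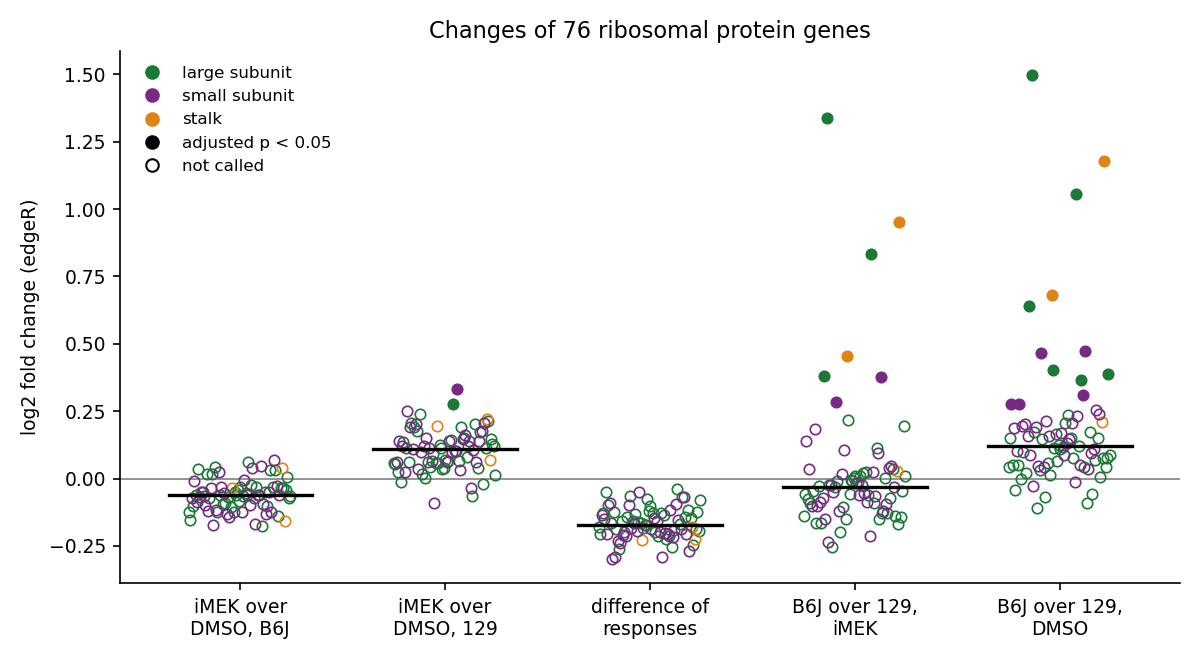
Log2 fold changes of the 76 genes in 5 comparisons, 1 point a gene, filled where the adjusted p was under 0.05; black lines are medians. Responses to iMEK lie between -0.17 and 0.33, while the strain comparisons hold genes up to 1.34 with iMEK and 1.50 with DMSO.

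The largest differences measured among these genes lay between the backgrounds. With iMEK 7 members were higher in B6J than in 129 and none was lower, where 8.9% of all genes were higher and 9.47% lower. With DMSO 13 members were higher and none was lower, where 10.4% of all genes were higher and 10.5% lower. As shares, 9.21% of the members were called with iMEK (18.4% of all genes) and 17.1% with DMSO (20.9% of all genes). All 7 genes called with iMEK were among the 13 called with DMSO, which is 53.8% of the 13. The median log2 difference of the 76 was -0.03 with iMEK, beside -0.01 over all genes, and 0.12 with DMSO, beside -0.01. By unadjusted p under 0.05 in edgeR, 4 members were lower with iMEK and none with DMSO, and DESeq2 called none lower in either.

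Of the stalk genes, 2 of 3 were higher in B6J. Rplp0, the base of the stalk and a common reference gene in quantitative PCR, had 2244, 2329 and 2487 CPM in B6J with iMEK, against 1394, 1129 and 1124 CPM in 129 with iMEK. In DMSO it had 2950, 2484 and 2437 CPM in B6J, against 1168, 1132 and 1178 CPM in 129. No B6J library overlapped with a 129 library, and the ratio was 1.94-fold with iMEK (log2 0.95 ± 0.10 SE, adjusted p = 4.56e-05) and 2.26-fold with DMSO (log2 1.18 ± 0.10 SE, adjusted p = 9.34e-06). Rplp1, 1 of the acidic proteins that bind elongation factors, had 1368, 1396 and 1509 CPM in B6J with iMEK, against 1242, 972 and 902 CPM in 129 with iMEK. Under DMSO it had 1670, 1402 and 1303 CPM in B6J, against 869, 924 and 932 CPM in 129. The groups did not overlap within a treatment, and the ratio was 1.37-fold with iMEK (log2 0.46 ± 0.12 SE, adjusted p = 0.0191) and 1.61-fold with DMSO (log2 0.68 ± 0.12 SE, adjusted p = 0.00187). The call with iMEK was lost without replicate 2 or 3 of 129 with iMEK (adjusted p = 0.0637 and 0.0689) and without replicate 3 of B6J with iMEK (0.0591).

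Rplp2, the partner of Rplp1 in the stalk, had 615, 693 and 693 CPM in B6J with iMEK, against 736, 626 and 600 CPM in 129 with iMEK. With the solvent it had 752, 610 and 583 CPM in B6J, against 532, 556 and 594 CPM in 129. It overlapped between backgrounds in both treatments and did not pass the test (log2 0.03 ± 0.11 SE with iMEK and 0.21 ± 0.11 SE with DMSO). Rplp0, Rplp1 and Rplp2 together made up 7.95, 8.28 and 8.47% of the ribosomal protein counts in B6J with iMEK, against 5.88, 5.47 and 5.10% in 129 with iMEK. With DMSO they made up 8.52, 8.32 and 8.20% in B6J, against 5.39, 5.28 and 5.23% in 129. Counts on large subunit genes were 1.20 to 1.23 times those on small subunit genes in B6J with iMEK and 1.22 to 1.27 times in 129 with iMEK. With DMSO the ratio was 1.19 to 1.21 in B6J and 1.24 to 1.28 in 129.

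Of the large subunit genes, 3 of 43 were higher in B6J with iMEK and 6 of 43 with DMSO. Rpl29, whose product is also known as a heparin-binding protein, differed most of all members. It had 329, 342 and 368 CPM in B6J with iMEK, against 151, 134 and 126 CPM in 129 with iMEK. With DMSO it had 376, 326 and 324 CPM in B6J, against 127, 118 and 118 CPM in 129. Every B6J library lay far above every 129 library, and the ratio was 2.53-fold with iMEK (log2 1.34 ± 0.09 SE, adjusted p = 1.23e-06) and 2.82-fold with DMSO (log2 1.50 ± 0.09 SE, adjusted p = 5.07e-07). Rpl34 had 315, 309 and 314 CPM in B6J with iMEK, against 197, 165 and 165 CPM in 129 with iMEK. In DMSO it had 349, 310 and 301 CPM in B6J, against 154, 153 and 154 CPM in 129. These groups did not overlap, at 1.78-fold with iMEK (log2 0.83 ± 0.08 SE, adjusted p = 2.77e-05) and 2.08-fold with DMSO (log2 1.06 ± 0.08 SE, adjusted p = 4.23e-06).

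Rpl30, whose yeast counterpart binds its own transcript, had 187, 190 and 186 CPM in B6J with iMEK, against 157, 133 and 143 CPM in 129 with iMEK. Under DMSO it had 214, 194 and 185 CPM in B6J, against 120, 126 and 134 CPM in 129. It was 1.30-fold higher with iMEK (adjusted p = 0.00506) and 1.56-fold with DMSO (adjusted p = 0.000161), and the groups did not overlap. The other 3 large subunit genes passed with DMSO alone. Rpl13a, which in human cells also silences inflammatory mRNAs, was at log2 0.22 with iMEK and 0.40 with DMSO (adjusted p = 0.113 and 0.00708). Rpl11 was at log2 0.20 with iMEK and 0.39 with DMSO (adjusted p = 0.156 and 0.00849), and Rpl3, which lines the peptidyl transferase centre, at 0.11 and 0.37 (adjusted p = 0.428 and 0.00994). The interaction test passed for none of these 3, so their strain differences are not shown to differ between treatments. Rpl5, the partner of Rpl11, was at log2 -0.06 with iMEK and 0.15 with DMSO and passed in neither.

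Of the small subunit genes, 2 of 30 were higher in B6J with iMEK and 5 of 30 with DMSO. Rps2, near the mRNA entry of the small subunit, had 1992, 2013 and 2057 CPM in B6J with iMEK, against 1727, 1458 and 1486 CPM in 129 with iMEK. With the solvent it had 2500, 2090 and 2053 CPM in B6J, against 1553, 1541 and 1696 CPM in 129. The groups did not overlap, at 1.30-fold with iMEK (log2 0.38 ± 0.09 SE, adjusted p = 0.0113) and 1.39-fold with DMSO (log2 0.47 ± 0.09 SE, adjusted p = 0.00296). Rps15a had 547, 549 and 536 CPM in B6J with iMEK, against 475, 408 and 458 CPM in 129 with iMEK. With DMSO it had 625, 525 and 519 CPM in B6J, against 379, 399 and 430 CPM in 129, again with no overlap. The ratio was 1.22-fold with iMEK (adjusted p = 0.0389) and 1.38-fold with DMSO (adjusted p = 0.00256). The call with iMEK was lost in 8 of the 19 other settings, among them the replicate block (adjusted p = 0.0534). It was lost without each of the 3 libraries of B6J with iMEK, replicate 2 or 3 of 129 with iMEK or replicate 2 of 129 with DMSO, at an adjusted p of 0.0550 to 0.112.

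Rps21, Rps9 and Rps3, which encode proteins of the small subunit, passed with DMSO alone, at 1.24-, 1.21- and 1.21-fold (adjusted p = 0.0461, 0.0220 and 0.0307). Rps21 had 305, 314 and 326 CPM in B6J with iMEK, against 336, 277 and 272 CPM in 129 with iMEK, and 387, 314 and 307 CPM in B6J with DMSO, against 267, 270 and 276 CPM in 129 with DMSO. It lost its call in 14 of 19 other settings, the replicate block (adjusted p = 0.0531) and 10 of 12 left-out libraries among them, with an adjusted p of up to 0.159 without replicate 1 of B6J with DMSO. Without that library Rps9 and Rps3 lost theirs too (adjusted p = 0.0727 and 0.0929). Rps9 also lost its call when replicate 2 of either DMSO group or replicate 3 of 129 with DMSO was absent (0.0526 to 0.0657), and Rps3 without replicate 1 or 2 of 129 with DMSO (0.0695 and 0.0881). Rps6 was at log2 -0.02 with iMEK and 0.13 with DMSO and did not pass. The X-linked Rpl10, Rpl36a, Rpl39 and Rps4x were at log2 -0.14, 0.03, 0.01 and -0.05 with iMEK and 0.04, 0.15, 0.21 and 0.15 with DMSO, none of which passed.

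**Figure D4:**
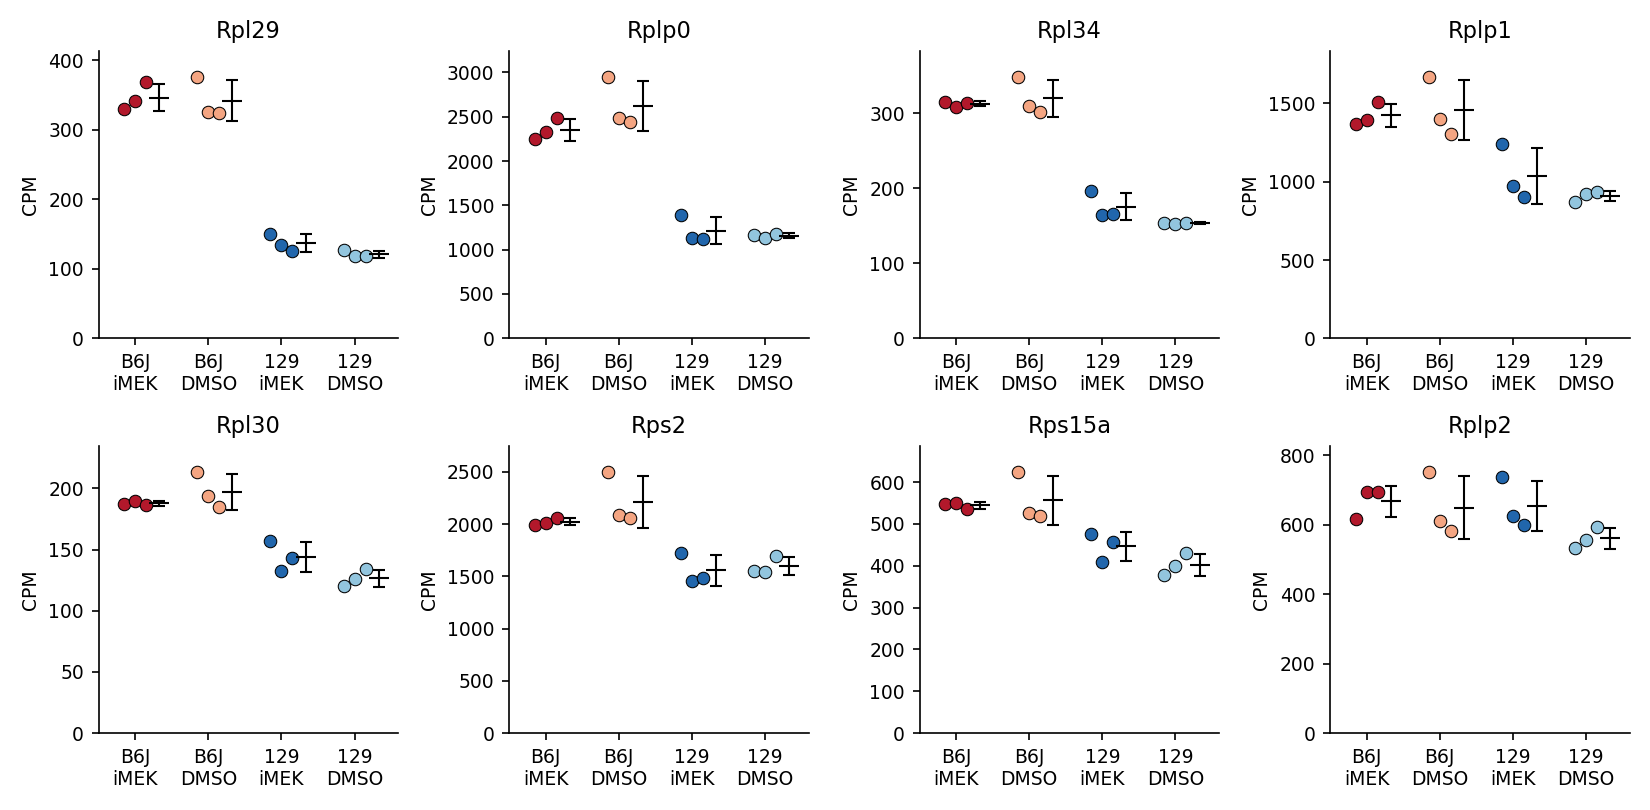
CPM per library for the 7 members that were higher in B6J in both treatments and for Rplp2, which passed in neither. Each point is 1 library, and bars give the mean ± SD of 3. For the 7 genes every B6J library lies above every 129 library of the same treatment.

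With the 4 libraries that stood apart left out, the calls ran in both directions. Each group then kept its closer pair of libraries, and this choice narrows the estimated spread. For Rpl29 with iMEK the SE was 0.05, in place of 0.09 over all libraries. Adjusted p-values of this fit are therefore likely too small. With iMEK 12 members were then higher in B6J and 7 lower, and with DMSO 16 were higher and 7 lower. Of all 16773 genes tested in that fit, 2761 were higher and 2996 lower with iMEK, and 3256 were higher and 3237 lower with DMSO, so calls rose in number over the whole table too. The 7 and 13 genes called over all libraries were all among the members called. Of the genes called with DMSO alone over all libraries, Rps21, Rps9, Rps3, Rpl11 and Rpl13a were then higher with iMEK as well (adjusted p = 0.0200, 0.0250, 0.00574, 0.00885 and 0.00788). Of the lower ones, Rpl26 was at log2 -0.26 with iMEK and -0.29 with DMSO (adjusted p = 0.0034 and 0.0012), Rpl19 at -0.20 and -0.25 (0.0053 and 0.0015) and Rps27a at -0.22 and -0.20 (0.0118 and 0.0178). Over all libraries Rpl26 had 438, 428 and 438 CPM in B6J with iMEK, against 531, 490 and 533 CPM in 129 with iMEK, without overlap. In DMSO it had 533, 451 and 438 CPM in B6J, against 445, 532 and 558 CPM in 129, where the libraries that stood apart crossed over. The 7 lower with DMSO were Rpl19, Rpl23, Rpl26, Rpl27, Rpl38, Rps27a and Rps20. All of these but Rps20, on chromosome 4, lie on chromosome 11, which holds 7 of the 76 members. The 7 lower with iMEK were Rpl19, Rpl23, Rpl26 and Rps27a on chromosome 11, and Rps20, Rpl13 and Rpl28 on other chromosomes. The part of chromosome 11 in these differences was not tested. Across the 76 genes the differences with iMEK and with DMSO, which share no library, had a Spearman rho of 0.85. The signs matched in 36 of 76 genes, since the median differed by treatment.

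**Figure D5:**
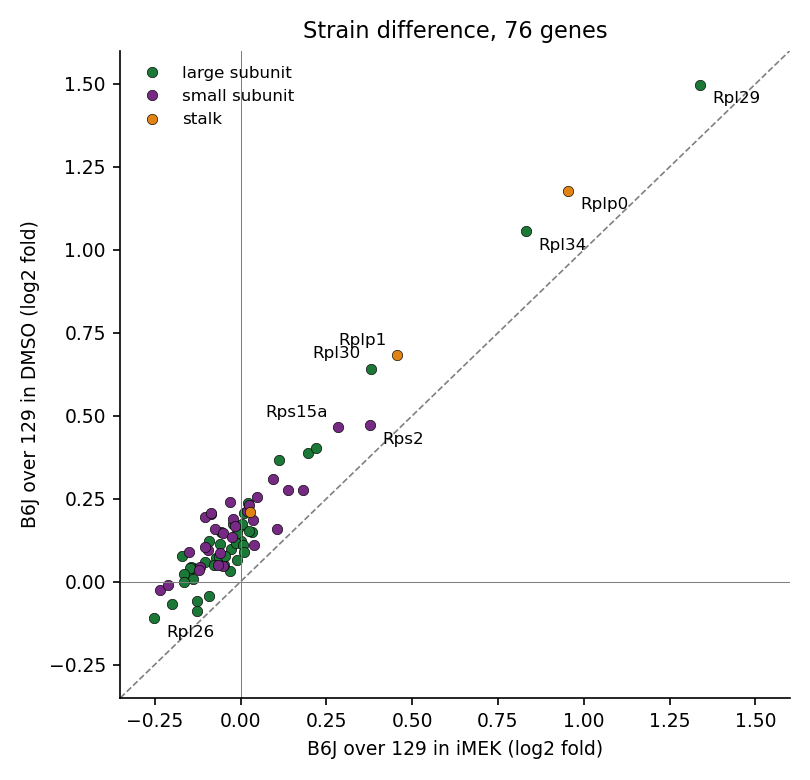
Log2 difference of B6J over 129 for the 76 genes, with iMEK on the horizontal axis and with DMSO on the vertical axis; the dashed line marks equal values. All 76 points lie above that line, and Rpl29, Rplp0 and Rpl34 lie farthest out on both axes.

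Most of these genes have near-identical copies elsewhere in the genome, left by reverse transcription of their mRNAs, and reads of a copy and its parent can be hard to separate. Over at least 80% of the coding sequence at 95% identity or more, 73 of the 76 genes matched another GENCODE M21 gene on GRCm38, with a median of 5.5 copies. Of 587 pairs, 554 involved a pseudogene and 27 a gene with a row of its own in the count table. Rpl21 had 58 copies and Rpl7a 32, while Rps3 and Rpl8 had none. The 7 genes called with iMEK had a median of 6 copies, against 5 for the other 69. The 13 called with DMSO had a median of 5, against 6 for the other 63. GRCm38 is built from C57BL/6J, and whether reads of the 129 cells align to these genes and copies as reads of the B6J cells do was not tested.

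How close such copies are is seen in 60 bases of coding sequence of the 3 genes that differed most, read from GENCODE M21 on GRCm38, with capitals at bases that differ from the ribosomal protein gene. Rplp0 lies on the plus strand of chromosome 5, at chr5:115560741-115560800 for this stretch. Its processed pseudogenes Gm8730 (chr8:102865685-102865744, minus strand), Gm9625 (chr13:67810300-67810359, plus strand) and Gm14165 (chr2:152353669-152353728, plus strand) differ from it at 1, 2 and 1 bases.
Rplp0: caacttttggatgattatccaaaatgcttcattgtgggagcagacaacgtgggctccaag
Gm8730: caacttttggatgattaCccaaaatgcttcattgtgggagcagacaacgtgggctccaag
Gm9625: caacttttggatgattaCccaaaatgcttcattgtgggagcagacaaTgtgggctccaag
Gm14165: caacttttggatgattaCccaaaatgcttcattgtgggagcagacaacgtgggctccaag
Rpl29 (chr9:106431069-106431128, plus strand), which has 28 copies, and its pseudogene Gm13841 (chr5:115801998-115802057, minus strand) are alike at all 60 bases. Its pseudogenes Gm6344, Gm8210 and Gm14036 also match at all 60.
Rpl29: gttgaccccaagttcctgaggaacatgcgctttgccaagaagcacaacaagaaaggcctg
Gm13841: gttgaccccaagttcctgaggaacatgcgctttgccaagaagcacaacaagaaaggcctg
Rpl34 (chr3:130728792-130728851, minus strand) is matched at all 60 bases by Rpl34-ps1 (chr6:71124775-71124834, plus strand) and at all but 2 by Gm4705 (chr17:66413760-66413819, minus strand). Its pseudogenes Gm10154 and Gm10086 also match at all 60.
Rpl34: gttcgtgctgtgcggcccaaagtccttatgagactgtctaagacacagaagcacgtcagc
Rpl34-ps1: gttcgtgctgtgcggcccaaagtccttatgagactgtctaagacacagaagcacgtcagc
Gm4705: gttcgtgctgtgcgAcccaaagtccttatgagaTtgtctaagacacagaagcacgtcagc

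The pyrimidine run was looked for at the annotated starts of these genes. RefSeq start windows (GRCm38.p6), each 250 bases before to 50 after the annotated start, were matched by symbol for 56 of the 76 genes. A gene was counted where any of its windows matched. At the annotated start itself, 13 of the 56 (23.2%) had a C followed by at least 4 pyrimidines, against 3.01% of the 27025 genes with a window. On either strand of the window the ETS core CCGGAAG occurred in 41.1% of the 56 and 9.93% of all genes with a window. The YY1 word AAGATGGC occurred in 8.93% and 3.19%, the SP1 box GGGCGG in 60.7% and 38.2%, the TATA box TATAAA in 10.7% and 15.7%, and the E-box CACGTG in 10.7% and 8.09%. None of these words contains another, and a match or its absence says nothing of binding. The 5 starts shown here, each 30 bases before to 20 after the start, are of genes with the pyrimidine run, which is in capitals.
Rps6 (chr4:86857348-86857397, minus strand): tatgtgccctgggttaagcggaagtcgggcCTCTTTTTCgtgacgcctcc
Rplp2 (chr7:141447621-141447670, plus strand): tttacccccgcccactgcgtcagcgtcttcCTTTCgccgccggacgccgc
Rps15a (chr7:118116128-118116177, minus strand): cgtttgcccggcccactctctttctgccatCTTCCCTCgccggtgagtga
Rps27 (chr3:90213629-90213678, minus strand): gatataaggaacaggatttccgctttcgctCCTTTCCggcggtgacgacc
Rpl38 (chr11:114668550-114668599, plus strand): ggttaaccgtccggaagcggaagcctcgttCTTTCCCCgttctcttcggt
The run was matched at the annotated start base alone, so a run that begins some bases away was counted as absent. The 43 genes without a match may therefore include TOP mRNAs. The 13 genes with the run had a median log2 response to iMEK of -0.06 in B6J and 0.11 in 129, and the 43 without it -0.06 and 0.10. For the 23 with the ETS core the medians were -0.06 and 0.11, and for the 33 without it -0.07 and 0.10.

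The name rule leaves out ribosomal protein genes with other names. Of Rps3a1, Fau and Rack1, none passed for iMEK in either background, and Rps3a1 was higher in B6J. It had 886, 871 and 879 CPM in B6J with iMEK, against 416, 345 and 386 CPM in 129 with iMEK, at 2.30-fold (log2 1.20 ± 0.08 SE, adjusted p = 1.71e-06). Under DMSO it had 962, 851 and 834 CPM in B6J, against 329, 330 and 356 CPM in 129, at 2.61-fold (adjusted p = 5.27e-07). Its groups did not overlap, and its size was near that of Rpl29.

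Some ribosomal proteins have paralogs, related genes whose products can take their place in the ribosome. Of 8 paralogs measured, 3 were higher with iMEK in B6J and 4 in 129, and none was lower, where 14.6% and 17.4% of all genes were higher. Rpl22l1, Rpl36al, Rps27l and Rps27rt passed in neither background. None of the 8 passed for the difference of responses. Rpl39l, the autosomal copy of the X-linked Rpl39, known from the male germ line, had 26.6, 23.2 and 23.8 CPM in B6J with iMEK, against 2.67, 2.14 and 1.73 CPM with DMSO. In 129 it had 26.9, 35.5 and 41.0 CPM with iMEK, against 4.47, 9.68 and 10.8 CPM with DMSO. It was 11.2-fold higher in B6J (log2 3.49 ± 0.31 SE, adjusted p = 1.01e-05) and 4.15-fold in 129 (log2 2.05 ± 0.28 SE, adjusted p = 0.000234), and the difference of the responses did not pass (adjusted p = 0.115). Rpl39 itself had 149, 149 and 148 CPM in B6J with iMEK, against 178, 147 and 138 CPM with DMSO, and 165, 128 and 150 CPM in 129 with iMEK, against 129, 126 and 145 CPM with DMSO.

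Rpl10l, the autosomal copy of the X-linked Rpl10, had 9.31, 9.55 and 8.93 CPM in B6J with iMEK, against 5.58, 4.91 and 4.95 CPM with DMSO (1.80-fold, adjusted p = 0.0181). In 129 it had 62.8, 82.1 and 80.9 CPM with iMEK, against 15.7, 32.6 and 34.4 CPM with DMSO (2.73-fold, adjusted p = 0.000622). It was lower in B6J than in 129 in both treatments, by log2 -3.02 with iMEK and -2.42 with DMSO (adjusted p = 8.96e-06 and 4.27e-05). Rpl3l, the muscle copy of Rpl3, was higher with iMEK at 0.998 ± 0.310 CPM in B6J, against 0.348 ± 0.0741 CPM with DMSO, and at 1.06 ± 0.349 CPM in 129, against 0.396 ± 0.106 CPM with DMSO (SD, n = 3 each; adjusted p = 0.00539 and 0.00715). The response of Rpl7l1, a nucleolar relative of Rpl7, passed in 129 alone (1.19-fold, adjusted p = 0.0210), at 1.12-fold in B6J (adjusted p = 0.102). Rps4l of this list was not analysed here.

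Genes of the wider ribosome programme are read against all genes, of which 14.6% were higher and 16.5% lower with iMEK in B6J, and 17.4% higher and 18.2% lower in 129. Of 74 mitochondrial ribosomal protein genes, 3 were higher and 4 lower with iMEK in B6J, and 17 were higher and 3 lower in 129. Mrps2 was higher in both, at 107 ± 2.11 CPM with iMEK and 85.1 ± 4.05 CPM with DMSO in B6J, and 124 ± 6.52 and 88.8 ± 6.11 CPM in 129 (SD, n = 3 each; adjusted p = 0.00391 and 0.000281). Of 14 genes for RNA polymerase I, which makes ribosomal RNA, 1 was higher and 1 lower in B6J, and 5 were higher in 129. Ubtf, its upstream binding factor, was higher in both (log2 0.39 and 0.50, adjusted p = 0.00164 and 0.000290). Of 42 ribosome assembly genes, 5 were lower in B6J, and 1 was higher and 1 lower in 129. Ebna1bp2, an assembly factor of the large subunit, was lower in both (log2 -0.28 and -0.29, adjusted p = 0.00320 and 0.00264). No gene of these mitochondrial, RNA polymerase I and assembly lists passed for the difference of responses, where 1.48% of all genes did. The unlike counts in B6J and 129 therefore do not show that the responses differ.

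Of 14 other genes with TOP mRNAs, 1 was higher and 1 lower with iMEK in B6J, and 1 was higher in 129. These were Pabpc1, the poly(A) binding protein, at log2 0.16 and Tpt1, a growth-related protein, at -0.33 in B6J, and the elongation factor gene Eef1g at 0.21 in 129 (adjusted p = 0.034, 0.00416 and 0.0481). Of 14 genes for S6 kinases and TOP mRNA control, 1 was higher and 4 lower in B6J, and 3 were higher and 4 lower in 129. Rps6ka6, a kinase downstream of ERK, was lower with iMEK in both, at 86.9 ± 17.9 CPM with iMEK and 144 ± 34.6 CPM with DMSO in B6J, and 81.4 ± 4.46 and 171 ± 27.7 CPM in 129 (SD, n = 3 each). Larp1, which binds the TOP sequence, was lower in 129 (log2 -0.47, adjusted p = 0.00729). In B6J it had 452 ± 9.94 CPM with iMEK and 560 ± 32.8 CPM with DMSO. The transcription factor gene Myc was lower in B6J (log2 -0.93, adjusted p = 0.000306). In 129 Myc had 38.9 ± 3.19 CPM with iMEK and 52.1 ± 1.01 CPM with DMSO (SD, n = 3 each). Whether Larp1 passed in B6J and Myc in 129 is not given here. No gene of these TOP and S6 kinase lists passed for the difference of responses, so the backgrounds are not shown to respond differently.

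Between the backgrounds, 2 of the 74 mitochondrial ribosomal protein genes were higher in B6J and 16 lower with iMEK, where 8.9% of all genes were higher and 9.47% lower. Their median log2 difference was -0.15, beside -0.01 over all genes. With DMSO 5 were higher and 7 lower, where 10.4% of all genes were higher and 10.5% lower. Of the 14 RNA polymerase I genes, 1 was higher and 1 lower with iMEK, and 4 were higher and 1 lower with DMSO. Mrps9 had the largest log2 difference of these, at log2 -0.65 with iMEK and -0.52 with DMSO (adjusted p = 0.000132 and 0.000605). Nle1, an assembly factor of the large subunit, had 31.0 ± 1.09 CPM in B6J with iMEK and 61.4 ± 5.08 CPM in 129 with iMEK, and 36.3 ± 1.53 CPM in B6J with DMSO and 60.9 ± 9.21 CPM in 129 with DMSO (SD, n = 3 each). It was lower in B6J in both treatments (log2 -0.99 and -0.75, adjusted p = 6.91e-05 and 0.000510). Gm9493, a copy of Rps7 with a row of its own that was picked after its values were seen, had 8.85, 10.1 and 7.65 CPM in B6J with iMEK, against 2.07, 1.68 and 1.32 CPM in 129 with iMEK. With DMSO this copy had 10.8, 7.45 and 7.02 CPM in B6J, against 1.47, 1.02 and 1.26 CPM in 129, and no B6J library overlapped with a 129 library.

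Members followed one another to different degrees over the 12 libraries, which share their groups and their scaling. The Pearson correlation of a gene's log2 CPM with the mean of the other members was highest for Rpl36a at 0.97 and lowest for Rpl26 at 0.15, Rpl23 at 0.19, Rpl27 at 0.27 and Rpl19 at 0.31. Rpl26, Rpl23, Rpl27 and Rpl19 all lie on chromosome 11, which holds 7 of the 76 members. Rps27a (0.35), Rpl38 (0.47) and Rpl23a (0.62) lie there too. The part of this location in the low correlations was not tested. Of genes that are no members, Lsm4, an RNA splicing protein, followed the members' mean most closely (r = 0.96), then Nip7 (0.96), Mtch2 (0.96), Eef1b2 (0.95) and Txnl4a (0.95). Across the 76 genes the response to iMEK had a Spearman rho of -0.17 in B6J and -0.25 in 129 with transcript length and of 0.05 and 0.07 with the number of copies. The strain difference had a rho of -0.10 with iMEK and -0.06 with DMSO with the number of copies.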

How the data were processed

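Counts per gene were deposited by the authors as 1 table of raw whole-number values for 26742 genes and 12 libraries. Stranded mRNA libraries were sequenced on a NovaSeq, per the labels. Per the submitters' processing notes, which give no order, the tools were STAR 2.7.10, HTSeq 0.6.1p1, SAMtools and DESeq; builds listed are GRCm38 and mm10. How strand and multiply aligned reads were counted is not stated in those notes. Even numbers made up 70.1 to 73.4% of each library's count values between 1 and 20. Genes were kept by filterByExpr (min.count 10, min.total.count 15), scaled by TMM and tested in edgeR 4.0.16 (R 4.3.3) in 1 quasi-likelihood fit of 4 group means over 12 libraries, with Benjamini-Hochberg adjustment over 16627 genes and a threshold of 0.05. DESeq2 1.42.0, other filters and scaling, a fibroblast covariate, blocks and left-out libraries were alternatives. Deviations of same-numbered iMEK and DMSO libraries correlated at 0.44, 0.29 and 0.22 in 129, all above 0.1, against -0.19, 0.09 and -0.17 in B6J. In 129, replicate 3 with iMEK and replicate 2 with DMSO correlated at 0.21, and replicate 2 with iMEK and replicate 3 with DMSO at 0.19. Replicate 1 stood apart in both 129 groups, so these values do not show that replicate numbers paired the libraries. Copies were found with BLAST 2.17.0 in GENCODE M21 transcripts; positions are 1-based. Named, some with log2 values alone, were the 5 called members with the largest log2 rise or fall per comparison, the stalk genes, Rps6, Rpl5, Rpl11, the X-linked members, the highest and lowest 3 per kilobase and members whose call a left-out library changed; of each related list, genes came from the 3 largest called changes. The members and lists were chosen with earlier results of these data known. Single results of a few genes are not reported here.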

Additional observations from a re-analysis of the deposited data

How the results depend on the processing

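The members higher with iMEK in 129 numbered 8 by DESeq2, 0 with the fibroblast covariate, 1 with 129 alone, 4 with 129 alone and the replicate block (2 with the replicate block over all libraries), 4 without the 4 libraries that stood apart and 0 to 10 with 1 library left out, at 0 without replicate 1 of 129 with iMEK or replicate 2 of 129 with DMSO, 1 without replicate 3 of 129 with DMSO, 10 without replicate 2 of 129 with iMEK and 7 without replicate 1 of B6J with DMSO. Leaving out those 4 gave 1 member lower in 129 and 2 in B6J, 1 lower in the difference of responses with a median log2 of -0.023, 12 higher and 7 lower in B6J over 129 with iMEK, and 7 lower with a median log2 of 0.018 with DMSO. B6J over 129 with iMEK had 1 member lower with the fibroblast covariate (2218 of all 16627 genes). It had 0 to 1 with 1 library left out, at 1 without replicate 1 of 129 with DMSO (2024 of all 16987 genes). Per 100 counts on other genes, the share in B6J with iMEK was 5.60. The replicate block over all libraries moved no count of members called by over 1.5 times. For the 22 calls of single members, 381 of 422 values kept direction and call, 41 kept direction only and 0 reversed. The 4-library setting was chosen after seeing the data and kept the closer pair of each group, which narrows the estimated spread. The cause of these changes was not tested. With 3 libraries a group and a median standard error of 0.09, the smallest member change called for iMEK was a log2 of 0.28.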
